A study of Mus musculus with 2 samples.

Results

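The S100 genes described here encode 10 small calcium-binding proteins, S100a1, S100a4, S100a6, S100a8, S100a9, S100a10, S100a11, S100a13, S100a16 and S100b. They were taken by name, each through the brightest array probe whose transcript accession belongs to that gene, out of 16774 named genes above background on at least 1 array. The study compared mouse spleens given PBS, a buffer that serves as the control, with spleens remodelled by SiO2 (silica). Each group is 1 pool of 5 spleens from female mice, harvested on day 19 after the first injection and hybridised to 1 one-colour Agilent array. Strain and age of the mice are not given in the sources used here. Per the labels' protocols, RNA of both groups went through a kit designed for blood, with separate lysis of red and white cells and removal of globin message. With 1 array per group there is no replicate and no test, and the number of arrays limits the precision; every value below describes these pools.

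S100 proteins carry a pair of EF-hands, the loop structures that hold calcium, and most work as dimers that bind other proteins when calcium rises. S100a8 and S100a9 pair to form calprotectin, a protein that fills the cytoplasm of neutrophils, withholds metal ions from microbes and acts outside the cell on Toll-like receptor 4 and on the receptor RAGE (Ager). S100a4, S100a6, S100a10 and S100a11 are widely made by fibroblasts, macrophages and epithelia, where they bind annexins, myosin and other cytoskeletal proteins, and S100a4 is also known as fibroblast-specific protein. Values are log2 processed signal minus the 75th percentile of the same array, and a difference is the SiO2 value minus the PBS value.

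No S100 gene of the 10 differed 2-fold between the pools. The neutrophil pair was higher in the SiO2 pool, while the 6 stromal members were lower or nearly equal. S100a8 was 1.90-fold and S100a9 1.31-fold higher in the SiO2 spleen, whereas S100a4 was 1.62-fold and S100a6 1.42-fold lower. Among all 16774 genes, 10.3% differed at least 2-fold, 6.62% higher and 3.70% lower. A count of 0 of 10 therefore lies near that background and is no result about these genes as a set. The median difference of the 10 genes was -0.061, beside 0.030 over all genes, with 4 genes above 0 and 6 below. The 6 include S100b, which was near background, and under normexp, another background correction, 5 genes were above 0 and the median was 0.0040.

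Of the 10 genes, 9 lie on chromosome 3 and S100b lies on chromosome 10, by the RefSeq genes of assembly GRCm38.p6. The 250 bases before the transcription start are printed for the neutrophil pair, for the stromal genes with the lowest differences, S100a4 and S100a6, and for S100a5, which lies between these and was chosen after its value was seen. They come from RefSeq promoter windows of GRCm38.p6, which were matched for 9 of the 10 genes, and run 5′ to 3′ on the gene's strand. S100a8 is at chr3:90668821-90669070 on the plus strand, S100a9 at chr3:90695722-90695971 on the minus strand, S100a4 at chr3:90603520-90603769, S100a6 at chr3:90612644-90612893 and S100a5 at chr3:90608272-90608521, the last 3 on the plus strand. Capitals mark matches to the motifs named after the sequences.
S100a8: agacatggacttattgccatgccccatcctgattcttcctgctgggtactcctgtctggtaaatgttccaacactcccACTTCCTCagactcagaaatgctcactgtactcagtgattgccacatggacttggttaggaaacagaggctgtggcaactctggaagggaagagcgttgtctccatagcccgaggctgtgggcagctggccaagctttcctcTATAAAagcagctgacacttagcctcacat
S100a9: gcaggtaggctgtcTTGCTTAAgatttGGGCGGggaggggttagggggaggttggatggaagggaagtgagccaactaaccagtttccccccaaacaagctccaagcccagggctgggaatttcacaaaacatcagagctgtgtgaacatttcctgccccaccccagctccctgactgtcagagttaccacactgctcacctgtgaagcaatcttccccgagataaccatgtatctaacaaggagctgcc
S100a4: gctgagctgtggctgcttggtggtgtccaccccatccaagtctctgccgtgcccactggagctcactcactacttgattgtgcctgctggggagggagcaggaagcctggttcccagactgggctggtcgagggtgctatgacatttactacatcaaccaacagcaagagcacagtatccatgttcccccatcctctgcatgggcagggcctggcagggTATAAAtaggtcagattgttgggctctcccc
S100a6: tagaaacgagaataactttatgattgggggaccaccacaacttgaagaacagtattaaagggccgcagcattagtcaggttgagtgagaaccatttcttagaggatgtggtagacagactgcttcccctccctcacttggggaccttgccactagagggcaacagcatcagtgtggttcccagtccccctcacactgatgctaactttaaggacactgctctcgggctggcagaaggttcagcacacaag
S100a5: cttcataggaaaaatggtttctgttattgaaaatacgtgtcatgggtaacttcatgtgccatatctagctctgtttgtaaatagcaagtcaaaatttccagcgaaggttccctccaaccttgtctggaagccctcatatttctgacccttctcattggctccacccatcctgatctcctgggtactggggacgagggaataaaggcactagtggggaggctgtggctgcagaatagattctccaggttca

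Both strands were searched for 5 motifs, and matches of different motifs did not overlap in these windows. GAGGAAGT, a site of the myeloid factor PU.1, was found in 2.44% of 32851 windows of the same length and in that of S100a8 alone among the 9 genes matched. It stood 172 to 165 bases before the start, on the strand opposite to the gene. TTNNGCAA, a form of the C/EBP site, was found in 9.56% of all windows and in that of S100a9 alone among the 9, at 236 to 229 bases before the start. TATAAA, the TATA box, occurred in 12.4% of windows, and S100a8 held it 30 to 25 bases and S100a4 31 to 26 bases before the start. GGGCGG, the GC box, occurred in 32.7% of windows and in those of S100a9, S100a11 and S100a16. TGANTCA, the AP-1 site, occurred in 6.75% of windows and in those of S100a11 and S100a16. The windows of S100a6 and S100a5 held none of the 5. A match describes the letters in the window only.

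S100a8, the smaller chain of calprotectin, had a processed signal of 14297 in PBS and 19049.7 in SiO2 (probe A_51_P256827). On the scaled log2 axis its values were 4.42 and 5.34, a difference of 0.93 with an error of 0.20 from the scanner software. That error follows the software's own model, about 10% of the signal on each array, and covers neither animals nor pools. The difference was over 4 of these errors, and 7.52% of all genes had a higher one. With B and T cell markers centred on 0, S100a8 was at 1.24 and past 2-fold.

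S100a9, the larger chain, had a signal of 28590.0 in PBS and 26192 in SiO2 (probe A_55_P1998471). Its scaled values were 5.42 and 5.80, a difference of 0.39 with an error of 0.20, and 25.4% of all genes had a higher difference. The raw signal of S100a9 was thus lower on the SiO2 array, and only the scaled value was higher. The SiO2 array was dimmer as a whole, with a 75th percentile of 469 against 670 on the PBS array. Without any scaling, an alternative chosen after seeing the data, S100a9 was at -0.13 and S100a8 at 0.41. The difference of S100a8 exceeded that of S100a9 by 0.54 with an error of 0.29, which no scaling by a constant can move. Neither probe was saturated.

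**Figure D1:**
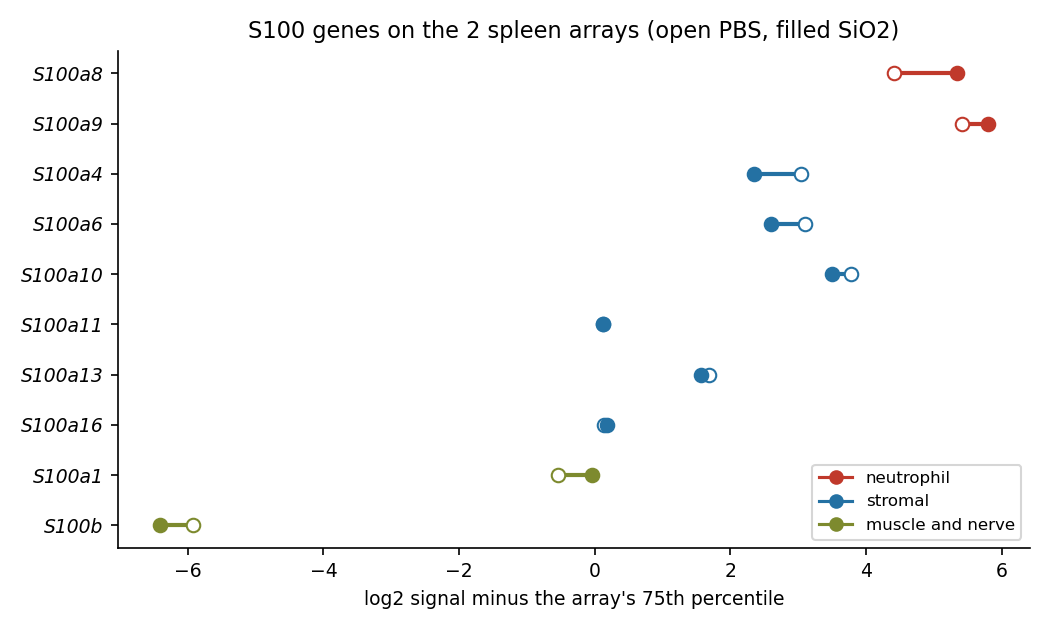
Scaled log2 signal (horizontal axis) of the brightest probe of each of the 10 S100 genes, with the PBS pool as an open circle and the SiO2 pool as a filled one, coloured by the group of cells each gene is best known from. The filled circles of S100a8 and S100a9 lie to the right of the open ones and those of S100a4, S100a6 and S100a10 to the left, while S100a11 (-0.0072) and S100a16 (0.036) nearly coincide; levels of different probes are not comparable, and S100b in SiO2 was not above background.

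S100a4, which binds non-muscle myosin and promotes cell motility, had a signal of 5509.7 in PBS and 2388 in SiO2. Its scaled values were 3.04 and 2.35, a difference of -0.69 with an error of 0.20, and 8.92% of all genes had a lower one. Its other probe gave -0.48, so both probes of the gene pointed the same way. S100a6, called calcyclin, which is known from proliferating fibroblasts and epithelia, had a signal of 5768 in PBS and 2857 in SiO2. Its scaled values were 3.11 and 2.61, a difference of -0.50. Together these were the only stromal members beyond 2 of the software's errors.

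S100a10, the partner of annexin A2 in a membrane complex that binds plasminogen, had a signal of 9158 in PBS and 5328 in SiO2. The difference was -0.27 after scaling, 1.3 times the software's error. S100a13, which takes part in the release of fibroblast growth factor 1, had a signal of 2158 in PBS and 1397 in SiO2 and differed by -0.12. S100a13 was thus within that error. S100a11, a partner of annexin A1, had a signal of 731 in PBS and 509.8 in SiO2 and differed by -0.0072. S100a16, a widely expressed member, had a signal of 737 in PBS and 529.7 in SiO2 and differed by 0.036, with 0.11 for its other probe. S100a11 and S100a16 were the members nearest to 0, and their signs depended on the processing. Cyclic loess put S100a11 at 0.014, and scaling to the median put S100a16 at -0.016.

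S100a1 and S100b are best known from muscle and from glia and nerve, respectively. S100a1, a regulator of calcium release in heart and skeletal muscle, had a signal of 462 in PBS and 458 in SiO2 and differed by 0.50 after scaling. Its other, dimmer probe gave 0.33. Without scaling S100a1 was at -0.012, so its raw signals were nearly equal. S100b, a marker of astrocytes and Schwann cells, was close to background, with a signal of 11.1 in PBS and 5.50 in SiO2. In the SiO2 pool its probe was not well above background. Against the lowest signal above background on that array S100b was at least 1.26-fold lower, and normexp background correction gave 0.29, in the other direction. No direction can be read for S100b.

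Over the 9 genes measured on both arrays, the difference was larger than 1 software error in 6 and larger than 2 in 4, namely S100a8, S100a4, S100a6 and S100a1. Probes printed in up to 10 spots gave another view of technical error. Over 304 such probes the difference varied among spots with an SD whose median was 0.062 and whose 95th percentile was 0.25. Beyond the latter lay 6 of the 9 genes. Differences of that size were common, since 28.1% of all genes had a lower one than S100a10 (-0.27) and 25.4% a higher one than S100a9 (0.39). These counts are therefore no result about the S100 genes as a set. Neither the software error nor the spot SD includes variation between animals, pools, labelling or hybridisation.

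**Figure D2:**
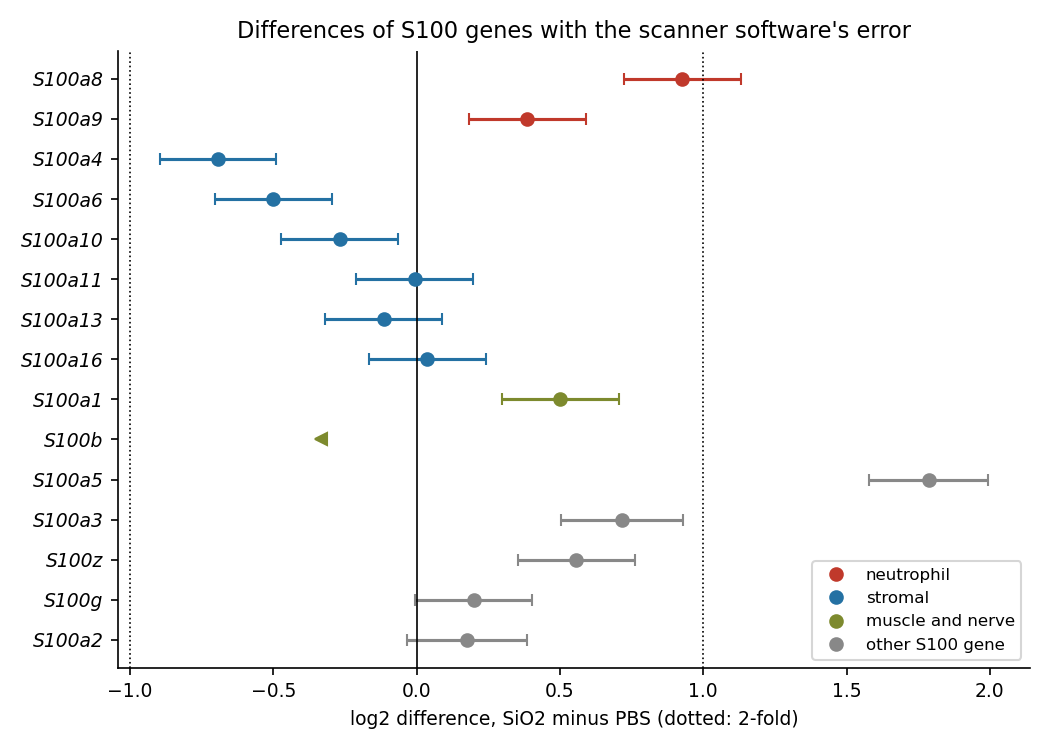
Log2 difference, SiO2 minus PBS, of the 10 S100 genes and of 5 further S100 genes above background, with bars of 1 error from the scanner software and dotted lines at 2-fold. All 10 lie between the dotted lines, with S100a8 at 0.93 and S100a4 at -0.69 farthest out, while S100a5 reaches 1.79; the triangle marks the bound for S100b.

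The neutrophil and stromal members were then set against each other. S100a8 and S100a9 had a mean difference of 0.66, and the 6 stromal members S100a4, S100a6, S100a10, S100a11, S100a13 and S100a16 had a mean of -0.26. The gap between these means was 0.91, or 1.89-fold, with an error of 0.17 from the software's errors. That error takes the probes' errors as independent. It leaves out the spread among members and any variation between pools and hybridisations, so it does not measure how certain the gap is. The groups did not overlap, since the lower neutrophil member (0.39) lay above the highest stromal one (0.036). Of all genes, 25.4% lay above S100a9 and 49.5% above S100a16, so such positions were common. S100a1, at 0.50, lay between S100a9 and S100a8. Of the S100 genes in neither group, S100a5 (1.79), S100a3 (0.72) and S100z (0.56) also lay above S100a9. S100g (0.20), S100a2 (0.18) and Crnn (-0.43) lay below S100a9, and S100b has no readable direction. Lying above the stromal members was thus not particular to the neutrophil pair. The gap cancels any constant scaling of an array. Over 8 other ways of processing it ranged from 0.76, in the authors' deposited values with 4 stromal members, to 0.91, and the groups never overlapped. Those that only shift all genes by a constant could change neither the gap nor the overlap. Among those that could, normexp gave 0.87, cyclic loess 0.84 and the mean over probes 0.89. In a bulk sample, fewer cells of a type and less RNA per cell cannot be told apart.

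**Figure D3:**
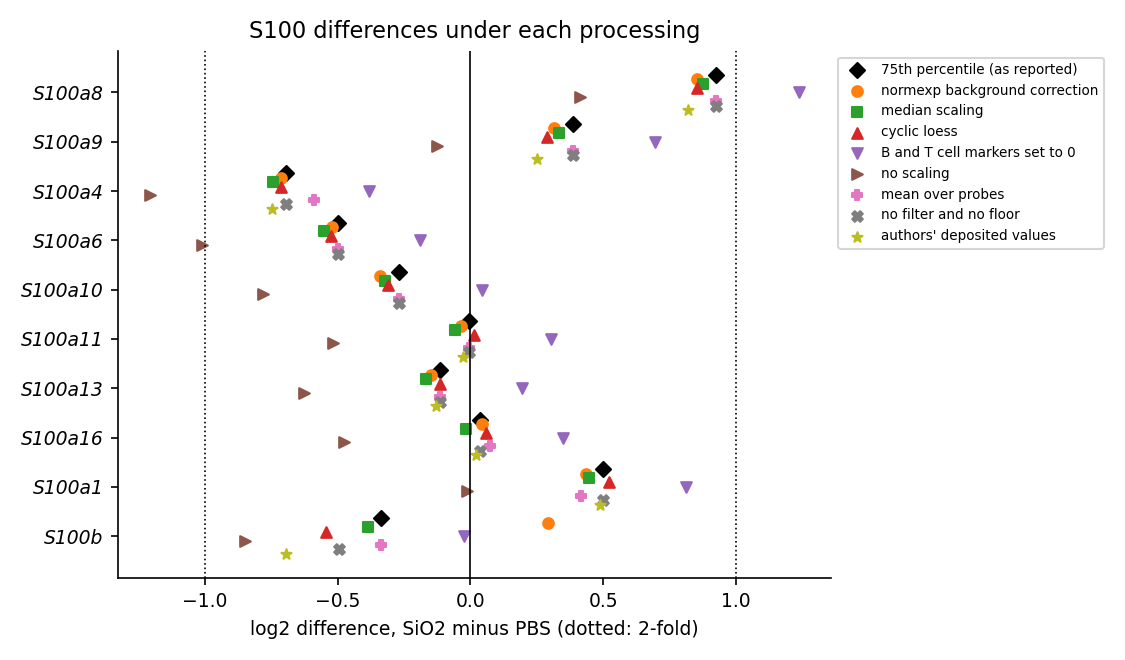
Log2 difference, SiO2 minus PBS, of each S100 gene (rows) as reported and under 8 other ways of processing (symbols), with dotted lines at 2-fold. Most symbols of a gene lie together; setting B and T cell markers to 0 moves every gene right, with S100a8 at 1.24, and leaving out the scaling moves every gene left, with S100a4 at -1.21 and S100a6 at -1.01.

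Neutrophil markers other than the S100 genes were mostly higher after silica. Their median was 1.10, with 14 of 24 past 2-fold on the higher side and 0 on the lower. Over all genes, 6.62% were past 2-fold on the higher side and 3.70% on the lower. Of these markers, 14 lay above S100a8 and 18 above S100a9. The largest differences were those of granule genes, such as Ngp (3.13), the iron-binding Ltf (2.96), the iron-trapping Lcn2 (2.45), the antimicrobial peptide Camp (2.43), the collagenase Mmp8 (2.35) and Chil3 (2.34). The primary granule genes Elane (1.60) and Mpo (1.58) were also above S100a8. The markers below S100a9 were Csf3r, the receptor for the growth factor G-CSF (0.13), Cxcr1 (0.15), Il1r2 (0.36), Trem1 (-0.36), the chemokine receptor Cxcr2 (-0.80) and Stfa2l1 (-0.91). This division of the list was made after its values were seen and follows the values, not the stage of the neutrophil. The surface gene Cd177 was at 1.97, with dim signals of 8.86 in PBS and 24.3 in SiO2, and Mmp9 was at 0.85. The markers nearest to the mean of the S100 pair were Mmp25 (0.60), Padi4 (0.82) and Retnlg (0.85) where likeness is only closeness of 1 difference.

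Markers of the cells known to make the stromal S100 members differed in both directions. The counts below stand beside 6.62% of all genes past 2-fold on the higher side and 3.70% on the lower. Fibroblast and matrix markers had a median of 0.50, with 7 of 18 past 2-fold on the higher side and 0 on the lower, led by Lum (2.80), Lox (2.51), Postn (2.01), Col3a1 (1.93), Col1a1 (1.58) and Col5a1 (1.38). The contractile genes Acta2 (-0.91) and Tagln (-0.88), the proteoglycan Dcn (-0.86) and the filament protein Vim (-0.32) of the same list were on the side of S100a4 and S100a6. Monocyte and macrophage markers had a median of -0.78, with 4 of 15 past 2-fold on the lower side and 0 on the higher. These were Fcgr1 (-2.02), Aif1 (-1.50), Spic (-1.49) and Cd5l (-1.22). On the other side, 3 markers of that list were above 0, namely Itgam (0.59), Lyz2 (0.45) and Lyz1 (0.24). Mesothelial markers had 11 of 13 past 2-fold on the lower side, with Msln at -5.30, and among those measured on both arrays Wt1, at -0.94, was nearest to 0. Their median was -3.50, a bound, since 4 of the 13 were above background in PBS only and were set against the lowest signal above background. Under normexp the mesothelial median was -1.64. S100a4, S100a6 and S100a10 are known from all 3 kinds of cell, and the part of each in their difference was not tested.

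**Figure D4:**
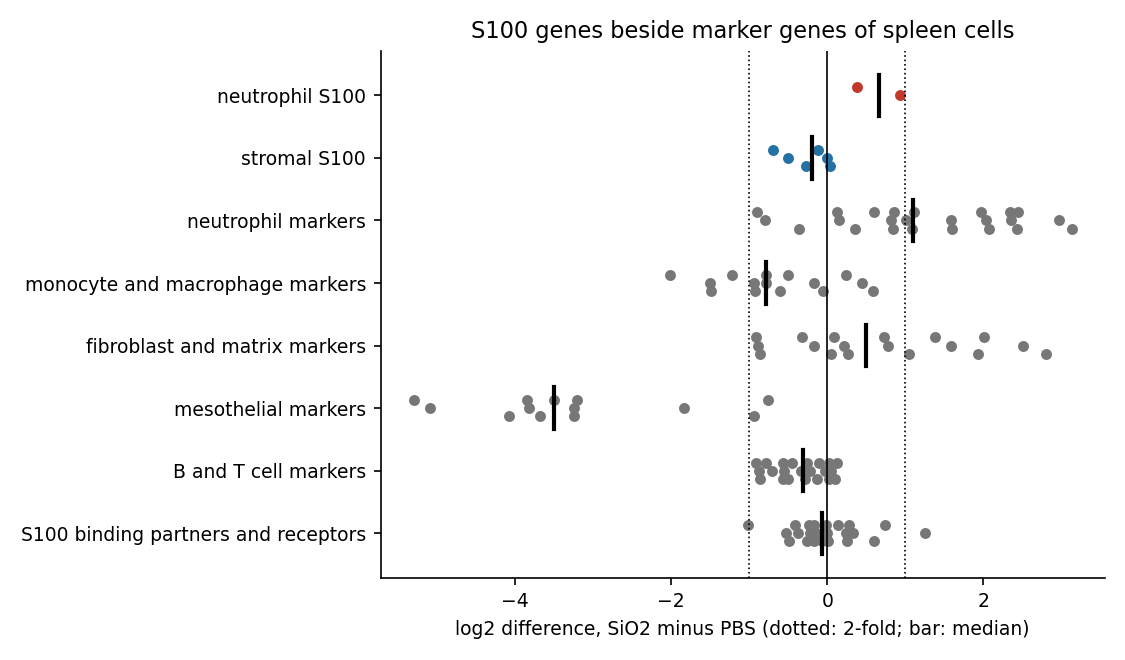
Log2 difference, SiO2 minus PBS, of the neutrophil and stromal S100 genes beside marker genes of spleen cells and S100 partners (1 point a gene, bars are medians, dotted lines 2-fold). The neutrophil S100 pair lies within the spread of neutrophil markers and under their median of 1.10. The stromal S100 genes lie between the medians of macrophage (-0.78) and fibroblast markers (0.50). Of all genes, 8.92% lay below S100a4 (-0.69) and 19.5% above S100a1 (0.50). Each of these ranges thus holds most genes, so neither placement is particular to the S100 genes.

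S100b is also found in nerve-associated glia, and some S100 genes in cytotoxic lymphocytes and dendritic cells. Glial and Schwann cell markers had a median of -0.060, with 3 of 10 past 2-fold on the higher side and 0 on the lower. These were Gfap (2.70), Ncam1 (1.57) and Sostdc1 (1.20), but other probes gave 0.63 at the lowest for Gfap and a value below 0 for Ncam1. Sostdc1 was dim, with signals of 25.6 in PBS and 41.3 in SiO2, and at 0.70 under normexp. Over all genes, 6.62% were past 2-fold on the higher side and 3.70% on the lower. Cytotoxic lymphocyte and dendritic cell markers had a median of -1.48, with 7 of 12 past 2-fold on the lower side and 0 on the higher. Their part in the S100 values was not tested. As a check on the tissue, 8 of 9 spleen markers, among them Nkx2-3, Tlx1 and Cr2, had a named probe and were above background on both arrays. All 8 were lower in the SiO2 pool, with a median of -0.68, Spic (-1.49) and Cxcl13 (-1.26) being at least 2-fold lower. The median over B and T cell markers was -0.31, with 0 of 22 beyond 2-fold, and the brightest were Ms4a1 (-0.45) and Cd79b (-0.29). All 12 erythroid markers were at least 2-fold higher, with a median of 1.80.

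Receptors and binding partners of S100 proteins had a median of -0.070, and of 23 genes 1 was past 2-fold on the higher side and 1 on the lower. That count lies near the background of 10.3% over all genes. Bsg, the membrane protein basigin to which S100a9 binds, had a signal of 330.4 in PBS and 552 in SiO2 and was 2.38-fold higher. Tlr4, the receptor for calprotectin, had a signal of 262 in PBS and 91.2 in SiO2 and was 2.02-fold lower. Bsg stayed above 2-fold under normexp, at 1.16, while Tlr4 was then at -0.67. Other parts of the Toll-like receptor complex were within 2-fold, with Ly96 at -0.26, Cd14 at -0.17 and the adaptor Myd88 at -0.53. Ager, the gene of RAGE, was near background, with a signal of 11.1 in PBS and 9.17 in SiO2.

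Annexins pair with particular S100 proteins, and those looked at, Anxa1, Anxa2, Anxa4, Anxa5, Anxa6 and Anxa11, were within 2-fold, as most genes on the arrays were. Anxa2, the partner of S100a10, had a signal of 12996 in PBS and 6823 in SiO2 and was at -0.42, on the same side as S100a10 (-0.27). Anxa6 was at -0.49 and Anxa4 at -0.38. Anxa1, the partner of S100a11, was at 0.74 by its brighter probe and 0.88 by the other, while S100a11 was at -0.0072. The annexin A2 pair thus lay closer together than the annexin A1 pair, by 1 difference per gene. This closeness was not particular to the partner, since Anxa11 (-0.24) and Anxa4 lay nearer to S100a10 than Anxa2 did. Anxa6, Anxa5 (0.28) and Anxa1 lay farther from it. Among other partners, the heavy chain of non-muscle myosin Myh9, which binds S100a4, was at -0.17, the large scaffold Ahnak at -0.15 by its brightest probe and down to -0.60 by its others, and the S100a6-binding protein Cacybp at -0.0023.

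S100a5 had the highest difference of any S100 gene on the array, although it is not among the 10. Of 16 other S100 and fused-type genes looked for, 6 were above background, 8 were not above background on either array and 2 had no named probe. S100a5, best known from olfactory neurons, had a signal of 58.1 in PBS and 141 in SiO2, a scaled difference of 1.79, or 3.45-fold, and 1.32 under normexp. This rests on 1 dim probe, which has no value among the authors' deposited values. S100a3, known from hair follicles, was at 0.72 with signals of 48.1 and 55.4, and S100z at 0.56. S100g (0.20), S100a2 (0.18) and the fused-type gene Crnn (-0.43) were within 2-fold as well. S100a14, S100a7a and S100a7l2, and the fused-type genes of the skin barrier Flg2, Hrnr, Rptn, Tchh and Tchhl1, were not above background on either array.

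Along chromosome 3, some neighbouring S100 genes lay on the same side and others on opposite sides. The order of the gene table runs S100a1, S100a13, S100a14, S100a16, S100a3, S100a2, S100a4, S100a5, S100a6, S100a7a, S100a8 and S100a9, with S100a11 and S100a10 farther along behind the fused-type genes. S100a4 (-0.69) and S100a6 (-0.50) enclose S100a5 (1.79), and the probes differ in brightness, S100a5 being the only dim one of the 3 genes. S100a8 (0.93) and S100a9 (0.39) are neighbours on the same side, as are S100a3 (0.72) and S100a2 (0.18). S100a1 (0.50) and S100a13 (-0.12), whose starts lie next to each other on opposite strands, were on opposite sides. These sides depend on the scaling. Without scaling S100a9 (-0.13) and S100a2 (-0.34) were below 0, as were S100a1 (-0.012) and S100a13 (-0.63). With B and T cell markers centred on 0, S100a1 (0.81) and S100a13 (0.20) were both above 0.

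**Figure D5:**
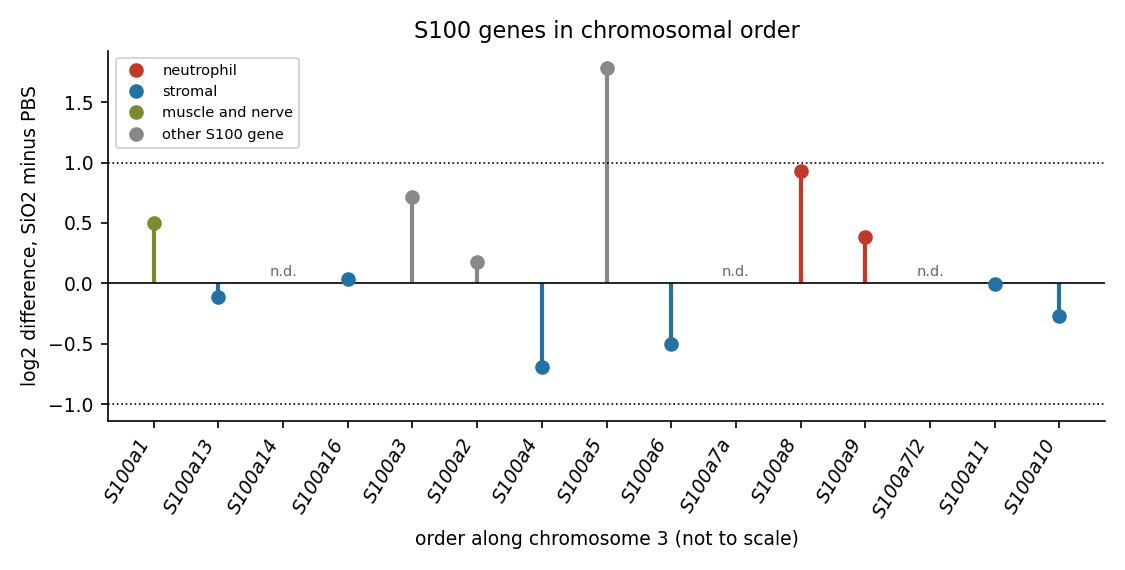
Log2 difference, SiO2 minus PBS (vertical axis), of the S100 genes in their order along chromosome 3, not to scale, with dotted lines at 2-fold and n.d. for genes not above background on either array. S100a5 at 1.79 stands between S100a4 at -0.69 and S100a6 at -0.50, while S100a8 and S100a9, next to each other, are both above 0.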

How the data were processed

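Each of 2 arrays held cRNA, labelled with Cy3, of 1 pool of 5 spleens. The deposited scanner files hold spot intensity on a linear scale, background-subtracted per the file headers by Agilent Feature Extraction 11.0.1.1; the submitters' processing notes name version 9.1. The series matrix, deposited by the authors, has log2 values, made by a method the sources used here do not give; over 18737 probes it correlated with the scanner values at 1.00 in both columns, which have medians of 5.68 and 5.68. Of 43020 spots per array, 145 and 148 were removed by outlier flags. Signals were scaled to each array's 75th percentile, spots of a probe were averaged, and 27217 of 39398 probes were named by accession through the RefSeq table of GRCm38.p6. The brightest probe above background on at least 1 array stood for a gene, and a dimmer value not above background was raised to the lowest value above it. The S100 members, marker lists and alternatives were chosen with earlier results of these data known. The rule for names took all 10 members, all other S100 genes and, from each list, members beyond 2-fold, at most 6, or the brightest 2. Not all that it takes are named, and further list members within 2-fold, Elane, Mpo and Cd177 were chosen after their values were seen. Alternatives were normexp (limma 3.58.1, offset 50), 3 other scalings, the mean over probes, no filter, and the authors' values; no scaling was added after seeing the data. The gene step was tested on simulated data (Python 3.11.15).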

Additional observations from a re-analysis of the deposited data

How the results depend on the processing

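The gap between neutrophil and stromal S100 members ranged from 0.76 to 0.91 over the 8 alternatives. Scaling to the median, centring B and T cell markers and no scaling shift all genes alike, so they could not move it. Leaving out the filter and floor left it at 0.91, since all these members were above background on both arrays. Only normexp (0.87), cyclic loess (0.84), the mean over probes (0.89) and the authors' values (0.76) could move it, and its direction held. Setting the median of B and T cell markers to 0 raised every gene by 0.31: 1 member was then 2-fold higher, the median of members was 0.25, S100a8 was at 1.24, S100a9 at 0.70, S100a10 at 0.042, S100a11 at 0.30 and S100a13 at 0.20, and 2091 genes were 2-fold higher and 301 lower, in place of 1111 and 620. Without scaling, chosen after seeing the data, the median of all genes moved from 0.030 to -0.48: 2 members (S100a4, S100a6) were 2-fold lower, the median of members was -0.57, S100a8 was at 0.41, S100a9 at -0.13, S100a16 at -0.48 and S100a1 at -0.012, and 3100 genes differed 2-fold, 2693 of them lower. Under normexp the median of all genes was 0.18, that of members 0.0040, S100b was at 0.29, and 914 genes differed 2-fold in place of 1731. S100a11 was at 0.014 after cyclic loess and S100a16 at -0.016 after scaling to the median. These moves follow from the shift of all genes where the setting is a scaling; for normexp and cyclic loess the cause was not tested. The E1A spike-in probes above background on both arrays had unscaled log2 differences of -1.04, -0.24 and -0.094, so they fix no single scale. No paired analysis was possible because each group has 1 array.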
